A study of Mus musculus with 3 samples.

Results

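The mitosis and G2/M genes are 40 genes whose products carry a cell from the end of DNA synthesis through chromosome segregation to the separation of the daughter cells. They were chosen by name for this function, with earlier results of these data known. All 40 were found, each on 1 line, among the 23283 genes or groups of genes that both deposited tables list. The cells were CD4+ T cells of C57BL/6 mice whose receptor bound 2W:I-A(b), the immunizing peptide bound to its MHC class II presenter. They were sorted from the inguinal and popliteal nodes 7 days after mice of every group had received 2W1S peptide with LPS, a bacterial lipopolysaccharide, in IFA, an oil adjuvant, in the footpads. The WT group is labelled wild-type, MyD88 T-KO is labelled Myd88 -/- and IL6ra T-KO is labelled Il-6 receptor a chain -/-, and the title of the study places both deletions in T cells. What drives the deletion, and the age of the mice, is not given in these sources. Each group was 1 library of cells pooled from 4 experiments and from 15 to 30 mice, so no difference below has a replicate check or a test of its own.

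Entry into mitosis is driven by CDK1, a kinase that is active only when bound to cyclin A or cyclin B. The kinases PLK1, AURKA and AURKB then order centrosome maturation, chromosome attachment and cytokinesis. The anaphase-promoting complex (APC/C) ends mitosis by marking cyclin B and securin for destruction. Transcripts of this machinery accumulate in G2 and mitosis, when B-MYB, FOXM1 and the MuvB complex switch on promoters that the DREAM complex keeps silent in resting cells. In T cells expanding after immunization these transcripts therefore mark cells in cycle.

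The first table set MyD88 T-KO against WT and the second set IL6ra T-KO against WT, so both comparisons use the same WT library. Its values differed between the tables by a scaling factor of 1.02, which also held for each of the 40 genes. WT levels below are those of the first table, and every ratio uses the WT values of its own table. Levels are in FPKM, which divides fragments by transcript length and by library size, so they can be compared between genes. Ratios are log2((knockout FPKM + 1)/(WT FPKM + 1)), where 0 means no difference and knockout stands for the library so labelled. By estimate the libraries held 20.8 to 23.0 M fragments each. Myd88, the adaptor of IL-1 family and Toll-like receptors, stood at 19.5 FPKM in MyD88 T-KO and 49.8 FPKM in WT, a ratio of -1.31 with a standard error of 0.18. This error is the one implied by the authors' deposited fold change and test statistic, and stems from their model and not from replicates. It belongs to the ratio without the added 1, which is larger in size than the ratio printed here, above all for genes of low level. In the second comparison, Il6ra was no lower in the library that bears the label IL6ra T-KO, at 65.1 FPKM beside 57.1 FPKM in the WT column of the same table. In that library Myd88 stood at 34.2 FPKM beside 51.0 FPKM in WT, a ratio of -0.56 (0.28). A gene-wide FPKM also counts exons outside a deletion, and which exons were deleted is not given in these sources. The library labelled IL6ra T-KO is therefore called the IL6ra-labelled library below, and directions in the second comparison hold for that library.

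Transcripts of the mitotic machinery were higher in MyD88 T-KO and in the IL6ra-labelled library than in WT, and by ratio further above WT in the latter. In MyD88 T-KO, 39 of the 40 genes were above WT, where 54.2% of the 10345 genes with at least 1 FPKM in at least 1 library were. The median ratio of the 40 was 0.35, beside 0.01 over all 10345 genes. At least 25% higher on the FPKM + 1 scale were 26 of the 40 genes, and 3.87% of all genes. None of the 40 was below WT by the same factor, and 3.77% of all genes were. In the IL6ra-labelled library all 40 were above WT, where 43.1% of 10502 genes were. There the median ratio was 0.59, beside -0.04 over all genes. At least 25% higher were 37 of the 40 genes, beside 11.4% of all genes, and no member was below WT by that factor, beside 9.97%. The 3 genes that fell short of 25% there were Cenpa, Aurka and Ndc80.

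The differences were broad and of moderate size. At a stricter 1.5-fold, 1 of the 40 genes counted in MyD88 T-KO, beside 1.13% of all genes, and 21 in the IL6ra-labelled library, beside 4.2%. None of the 40 reached 2-fold in either library, which 0.184% and 1.1% of all genes did. Summed over the 40 genes, the level was 707 FPKM in MyD88 T-KO and 552 FPKM in WT, and in the second comparison 837 FPKM and 565 FPKM. In each table, 37 of the 40 ratios lay above the 90th percentile of the ratios of all genes. Ratios of all genes spread more widely in the second table, with quartiles of -0.17 and 0.12, than in the first, with -0.07 and 0.10. By percentile the 40 were therefore no further out there, with medians of 96.7 in MyD88 T-KO and 95.9 in the IL6ra-labelled library. In bulk RNA, a larger share of cells in G2 or mitosis and more of these transcripts per cell cannot be told apart.

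**Figure D1:**
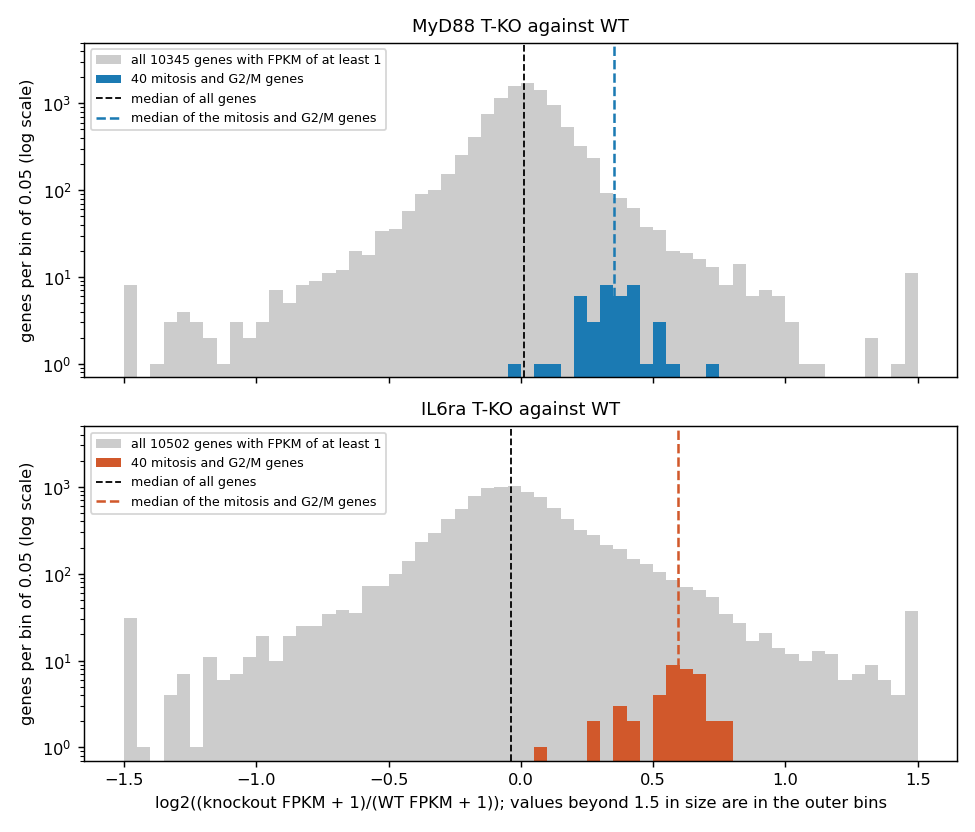
Distribution of log2((knockout FPKM + 1)/(WT FPKM + 1)) over all genes with at least 1 FPKM in at least 1 library (grey) and over the 40 mitosis and G2/M genes (coloured), in bins of 0.05 on a logarithmic count axis, for MyD88 T-KO (top) and IL6ra T-KO (bottom). Dashed lines are medians. The coloured genes centre on 0.35 and 0.59, to the right of the grey medians of 0.01 and -0.04, inside the right flank of the grey distribution rather than at its end.

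The authors' own tests called few of these genes. In the authors' deposited table for MyD88 T-KO, 2 members were marked significant and higher, Cenpf (q-value 0.00442) and Ccnb1 (q-value 0.0358), where 0.394% of the genes tested by the authors were so marked. In their table for IL6ra T-KO no member was marked significant, beside 0.502% of the genes tested marked significant and higher. Without adjustment the authors' deposited p-value was under 0.05 for 20 members in each table, all of them higher, beside 2.18% and 3.39% of the genes tested. The implied standard errors were larger in the second table, with a median of 0.34 over the 40 genes, than in the first, with a median of 0.20. These p-values compare 1 library with 1 library and not the genotypes.

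The promoters of mitotic genes are known for a pair of short elements near the start of transcription. One is the cell cycle genes homology region (CHR), a hexamer bound by the MuvB core, and the other is CCAAT, bound by NF-Y. The stretches below run from 120 bases before to 30 bases after the RefSeq start of GRCm38.p6. They are shown for cyclins B1 and B2 and for those of the 3 highest ratios in each table whose promoter is in the reference table. Capitals mark the CHR-type hexamers on either strand, which are TTTGAA (on the opposite strand it reads TTCAAA) and the self-complementary form TTTAAA, to which the palindromic variant TTCGAA was added. Capitals also mark the pentamer CCAAT, which reads ATTGG on the opposite strand. The coordinates are chr13:100786457-100786606 (- strand) for Ccnb1, chr9:70421525-70421674 (- strand) for Ccnb2, chr1:189688057-189688206 (- strand) for Cenpf and chr2:164769809-164769958 (+ strand) for Ube2c. For Prc1 they are chr7:80294356-80294505 (+ strand) and for Kif2c chr4:117178743-117178892 (- strand).
Ccnb1: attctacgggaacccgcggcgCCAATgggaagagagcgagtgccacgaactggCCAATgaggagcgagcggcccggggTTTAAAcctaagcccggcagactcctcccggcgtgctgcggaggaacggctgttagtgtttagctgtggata
Ccnb2: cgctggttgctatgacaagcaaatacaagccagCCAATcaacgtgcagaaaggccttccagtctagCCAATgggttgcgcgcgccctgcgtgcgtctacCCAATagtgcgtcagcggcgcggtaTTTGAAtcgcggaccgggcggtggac
Cenpf: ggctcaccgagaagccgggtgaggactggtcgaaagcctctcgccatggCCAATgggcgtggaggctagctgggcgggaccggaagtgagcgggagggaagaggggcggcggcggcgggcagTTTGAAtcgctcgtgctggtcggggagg
Ube2c: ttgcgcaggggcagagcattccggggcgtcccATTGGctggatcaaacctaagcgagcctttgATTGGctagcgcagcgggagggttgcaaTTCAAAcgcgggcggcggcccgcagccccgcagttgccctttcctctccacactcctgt
Prc1: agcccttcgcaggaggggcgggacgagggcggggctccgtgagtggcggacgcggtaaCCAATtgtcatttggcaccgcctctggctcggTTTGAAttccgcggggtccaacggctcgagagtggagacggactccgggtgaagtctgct
Kif2c: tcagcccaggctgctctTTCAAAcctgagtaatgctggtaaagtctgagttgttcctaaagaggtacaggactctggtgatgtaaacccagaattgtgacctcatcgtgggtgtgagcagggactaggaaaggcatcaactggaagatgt

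In the first 5 of these promoters a hexamer lies within 50 bases of the start, with at least 1 CCAAT upstream of it. The hexamer of Ccnb1 begins 42 bases before the start and that of Ccnb2 at base 5 after it. The RefSeq start of Kif2c lies 3852 bases inside the gene from the 5′ end in the deposited tables, so the stretch printed for it may not be the promoter in use in these cells. Cenpa, the member that differed least from WT across both tables, was added after its values were seen, at chr5:30666766-30666915 (+ strand).
Cenpa: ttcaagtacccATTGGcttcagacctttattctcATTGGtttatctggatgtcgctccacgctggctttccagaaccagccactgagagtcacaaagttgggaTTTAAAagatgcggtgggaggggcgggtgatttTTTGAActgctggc

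The Cenpa promoter also holds hexamers on both sides of the start and a pair of CCAAT elements. Across the 36 RefSeq promoters of the 34 members in the reference table, 29 had a CHR-type hexamer within 50 bases of the start, which is 80.6%. The same held for 8.62% of all 32851 mouse promoters of this length, and for 5.41% of the 9481 promoters of genes measured in the first table. CCAAT in either orientation was present anywhere from 250 bases before to 50 after the start in 80.6% of the members' promoters and in 37.4% of all promoters. At least 2 CCAAT stood in 52.8% and 11.7%. Among promoters of genes measured in the first table, 38.3% had CCAAT and 14.8% had at least 2. Of the 66 promoters found for the other mitotic genes compared below, 50% had the hexamer near the start. CCAAT was present in 66.7% of these 66, and at least 2 in 40.9%. For the DNA replication genes the same 3 shares were 10%, 60% and 35%. The E2F-type octamers TTTGGCGC and TTTCGCGC, which are commoner in promoters of DNA replication genes, were found in 1 member, Cdk1. That is 2.78% of the members' promoters, beside 30% of the 40 promoters found for the DNA replication genes and 0.813% of all promoters. Among promoters of genes measured in the first table, 1.72% had such an octamer. Neighbouring motifs may share end bases, and each was searched for by itself on both strands.

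The ratios of members with and without the hexamer near the start were set side by side. The 27 genes that had it showed a median ratio of 0.35 in MyD88 T-KO and 0.58 in the IL6ra-labelled library. The 7 that lacked it, Mki67, Nek2, Nuf2, Birc5, Kif2c, Nusap1 and Mad2l1, showed 0.38 and 0.65. The difference between these medians was not tested. The RefSeq starts of 3 of the 7, Kif2c, Nusap1 and Mad2l1, lie 3852, 8766 and 247 bases from the 5′ end in the tables, so another start may be in use there. Among the 27, the start of Cdc25b lies 59536 bases from the 5′ end of its interval, which is far longer than the gene. A match is a run of letters and was not tested as a binding site.

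**Figure D2:**
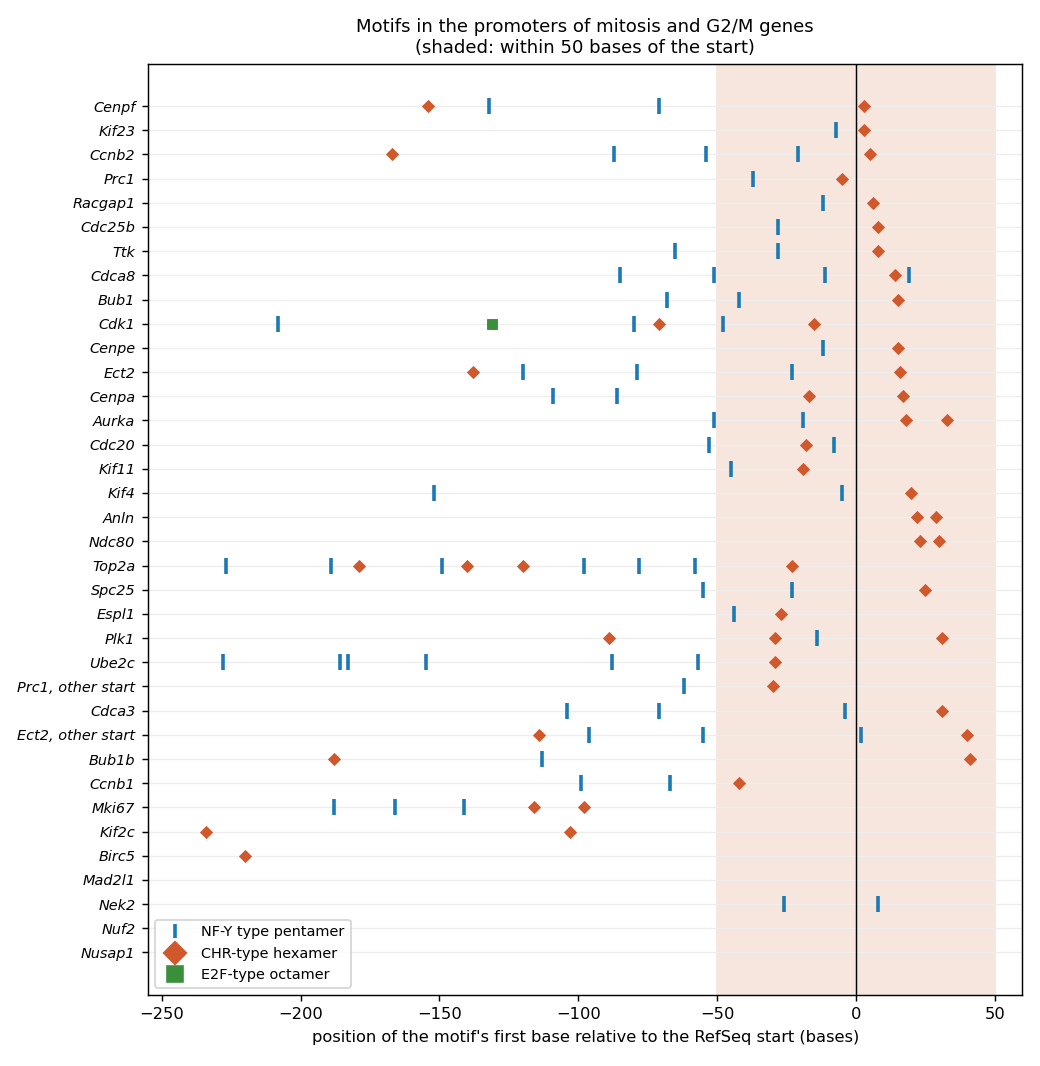
Position of CHR-type hexamers (diamonds), CCAAT pentamers (bars) and E2F-type octamers (square) in the 36 promoters of the mitosis and G2/M genes, in bases from the RefSeq start. Rows are ordered by the distance of the nearest hexamer to the start, and the shaded band covers 50 bases to each side. Hexamers crowd into the band in 29 promoters, and the CCAAT elements lie mostly upstream of them.

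The cyclins included the highest single ratio of the first table. Ccnb1 encodes cyclin B1, the partner of CDK1 at mitotic entry, and lies at chr13:100778739-100786486. It stood at 5.84 FPKM in WT, at 10.5 FPKM in MyD88 T-KO and at 9.66 FPKM in the IL6ra-labelled library. Its ratio in MyD88 T-KO was 0.74 (implied standard error 0.23), which lies at percentile 99.4 of all genes, and its ratio in the second table was 0.61 (0.40). Ccnb1 was 1 of only 2 members whose ratio was larger in MyD88 T-KO than in the IL6ra-labelled library. Ccnb2, the second B-type cyclin, showed the opposite order. It stood at 20.8 FPKM in WT, 24.6 FPKM in MyD88 T-KO and 34.1 FPKM in the IL6ra-labelled library, with ratios of 0.23 (0.19) and 0.66 (0.31). Ccna2, cyclin A2 of S phase and G2, stood at 23.7, 31.7 and 36.9 FPKM in the same order of libraries, with ratios of 0.41 (0.19) and 0.58 (0.32). The table's interval for Ccna2 covers 2.37 times the length of its RefSeq gene, so its fragments may include those of a neighbour.

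CDK1 and its activators were above WT in both comparisons. Cdk1 stood at 8.14 FPKM in WT, 11.2 FPKM in MyD88 T-KO and 12.6 FPKM in the IL6ra-labelled library. Cdc25b, a phosphatase that removes the inhibitory phosphates from CDK1, had the highest level of all 40 genes in each library, at 76.7, 90.7 and 102 FPKM. Its ratios were modest, 0.24 (0.23) and 0.37 (0.39), and its interval in the tables is 39.5 times as long as the RefSeq gene, so this level may include neighbouring transcripts. Cdc25c, the related phosphatase, was near the bottom of the range at 1.76, 2.50 and 3.32 FPKM, and its implied standard errors of 0.37 and 0.57 were among the largest. Foxm1 encodes the transcription factor that acts on many of these promoters. It stood at 6.05 FPKM in WT, 7.38 FPKM in MyD88 T-KO and 10.3 FPKM in the IL6ra-labelled library, with ratios of 0.25 (0.19) and 0.65 (0.32). The interval for Foxm1 is 1.72 times as long as its RefSeq gene, so its level may also include neighbouring transcripts.

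Among the 8 mitotic kinases, 6 were at least 25% higher in MyD88 T-KO and 7 in the IL6ra-labelled library. These counts are on the FPKM + 1 scale, beside 3.87% and 11.4% of all genes. Plk1 had the highest ratio of the 8 in both tables, 0.52 (0.19) and 0.70 (0.33), from 12.1 FPKM in WT to 17.7 and 20.8 FPKM. Aurkb, the catalytic subunit of the chromosomal passenger complex, stood at 9.32, 13.0 and 15.6 FPKM in WT, MyD88 T-KO and the IL6ra-labelled library. Aurka, the centrosomal relative of Aurkb, was the lowest of the 8 by ratio in both tables, at 0.28 (0.21) and 0.29 (0.36). Its levels were 9.07, 11.2 and 11.6 FPKM. The checkpoint kinase Bub1 stood at 3.68, 5.26 and 5.90 FPKM and its relative Bub1b, which encodes the checkpoint protein BUBR1, at 9.61, 12.4 and 15.4 FPKM. Ttk, or MPS1, which starts the spindle checkpoint at unattached kinetochores, stood at 2.12, 2.88 and 3.71 FPKM. Nek2, a kinase that separates the centrosomes, stood at 5.69, 7.69 and 10.1 FPKM, with ratios of 0.38 (0.22) and 0.70 (0.36).

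The kinesins are motors of the spindle and of the central bundle where the cell divides. Kif11, the motor that pushes the spindle poles apart, stood at 12.7 FPKM in WT, 16.5 FPKM in MyD88 T-KO and 20.3 FPKM in the IL6ra-labelled library. Kif2c encodes MCAK, which takes tubulin off microtubule ends and so corrects faulty attachments. It had the highest ratio of all 40 genes in the second table, 0.77 (0.38), from 4.50 to 8.38 FPKM, and a ratio of 0.30 (0.23) in the first. The gap of 0.47 between its ratios was the largest among the members. Kif4, a chromosome-bound kinesin, stood at 3.91, 5.45 and 7.01 FPKM. The cytokinesis kinesins Kif23 and Kif20a had ratios of 0.23 (0.20) and 0.36 (0.31) in MyD88 T-KO. In the IL6ra-labelled library they were 0.58 (0.33) and 0.39 (0.55), and the table's interval for Kif20a is 6.14 times as long as its RefSeq gene.

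The kinetochore genes were uneven. Cenpf, a large protein of the outer kinetochore that accumulates in G2, was the lowest of the 40 in WT at 1.56 FPKM. It stood at 2.83 FPKM in MyD88 T-KO and 3.11 FPKM in the IL6ra-labelled library, the largest proportional difference of any member in both, 1.82-fold and 1.95-fold on FPKM without the added 1. With 1 added the ratios were 0.58 and 0.66. Without it the authors' log2 fold changes, read as knockout over WT, were 0.86 (0.20) and 0.96 (0.35). Cenpa, the histone H3 variant that marks the centromere, was at the other end. It stood at 47.5 FPKM in WT, 50.4 FPKM in MyD88 T-KO and 51.1 FPKM in the IL6ra-labelled library, with ratios of 0.08 (0.17) and 0.07 (0.30) that are within their errors. Nuf2, Ndc80 and Spc25 encode subunits of a single complex, which binds microtubules. Their ratios were 0.48 (0.22), 0.12 (0.22) and 0.35 (0.29) in MyD88 T-KO and 0.55 (0.38), 0.29 (0.38) and 0.57 (0.48) in the IL6ra-labelled library. Mad2l1 encodes the checkpoint protein MAD2 and stood at 16.9, 19.7 and 26.1 FPKM. Cenpe, a kinetochore motor, had ratios of 0.24 (0.19) and 0.43 (0.32).

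The genes of anaphase and proteolysis had the highest subgroup median in MyD88 T-KO, 0.46. Ube2c encodes the ubiquitin-conjugating enzyme that works with the APC/C, and Cdc20 its activator in mitosis. Ube2c stood at 33.1 FPKM in WT, 48.0 FPKM in MyD88 T-KO and 52.9 FPKM in the IL6ra-labelled library, with ratios of 0.52 (0.19) and 0.63 (0.32). Cdc20 stood at 14.4, 19.7 and 22.0 FPKM, and its interval in the tables is 2.08 times as long as its RefSeq gene, so neighbouring transcripts may be included. Cdca3, an F-box-like protein tied to the turnover of the mitosis inhibitor WEE1, stood at 12.5, 18.2 and 21.3 FPKM. Espl1, or separase, which cuts the cohesin rings that hold sister chromatids together, stood at 3.02, 3.73 and 5.13 FPKM with ratios of 0.23 (0.21) and 0.58 (0.34).

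All 5 genes of the chromosomal passengers and spindle were at least 25% higher than WT in both comparisons. This is on the FPKM + 1 scale, beside 3.87% and 11.4% of all genes. Birc5 (survivin) and Cdca8 (borealin) are partners of AURKB in the passenger complex. Birc5 stood at 34.2 FPKM in WT, 43.3 FPKM in MyD88 T-KO and 54.9 FPKM in the IL6ra-labelled library, and Cdca8 at 18.0, 24.0 and 26.8 FPKM. Tpx2, which activates AURKA on the spindle, and Prc1, which bundles antiparallel microtubules, followed Kif2c as the next highest ratios in the second table, 0.75 (0.32) and 0.75 (0.31). In MyD88 T-KO they were 0.43 (0.19) and 0.37 (0.19). Nusap1, a microtubule-binding protein, stood at 10.1, 14.1 and 16.7 FPKM.

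Both genes of chromosome structure were higher as well. Mki67, whose product Ki-67 coats mitotic chromosomes and is a standard marker of cycling cells, stood at 20.3 FPKM in WT, 27.9 FPKM in MyD88 T-KO and 34.1 FPKM in the IL6ra-labelled library. Top2a, the topoisomerase that untangles sister chromatids, stood at 39.2, 50.1 and 60.9 FPKM. For Top2a the ratios were 0.35 (0.16) and 0.59 (0.28).

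Of the 3 cytokinesis genes, 1 was at least 25% higher in MyD88 T-KO and 3 in the IL6ra-labelled library. Both counts are on the FPKM + 1 scale, beside 3.87% and 11.4% of all genes. Racgap1, part of the central spindle complex with KIF23, stood at 17.7, 21.7 and 28.7 FPKM, and Ect2, the exchange factor that this complex recruits to switch on RhoA, at 5.92, 7.75 and 8.25 FPKM. Anln encodes anillin, a scaffold of the contractile ring, and was the single member not above WT in MyD88 T-KO. It stood at 1.63 FPKM in both libraries there and at 2.56 FPKM in the IL6ra-labelled library. Its implied standard errors, 0.70 and 1.04, were the largest of the 40, and the table's interval for it is 5.75 times as long as its RefSeq gene.

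**Figure D3:**
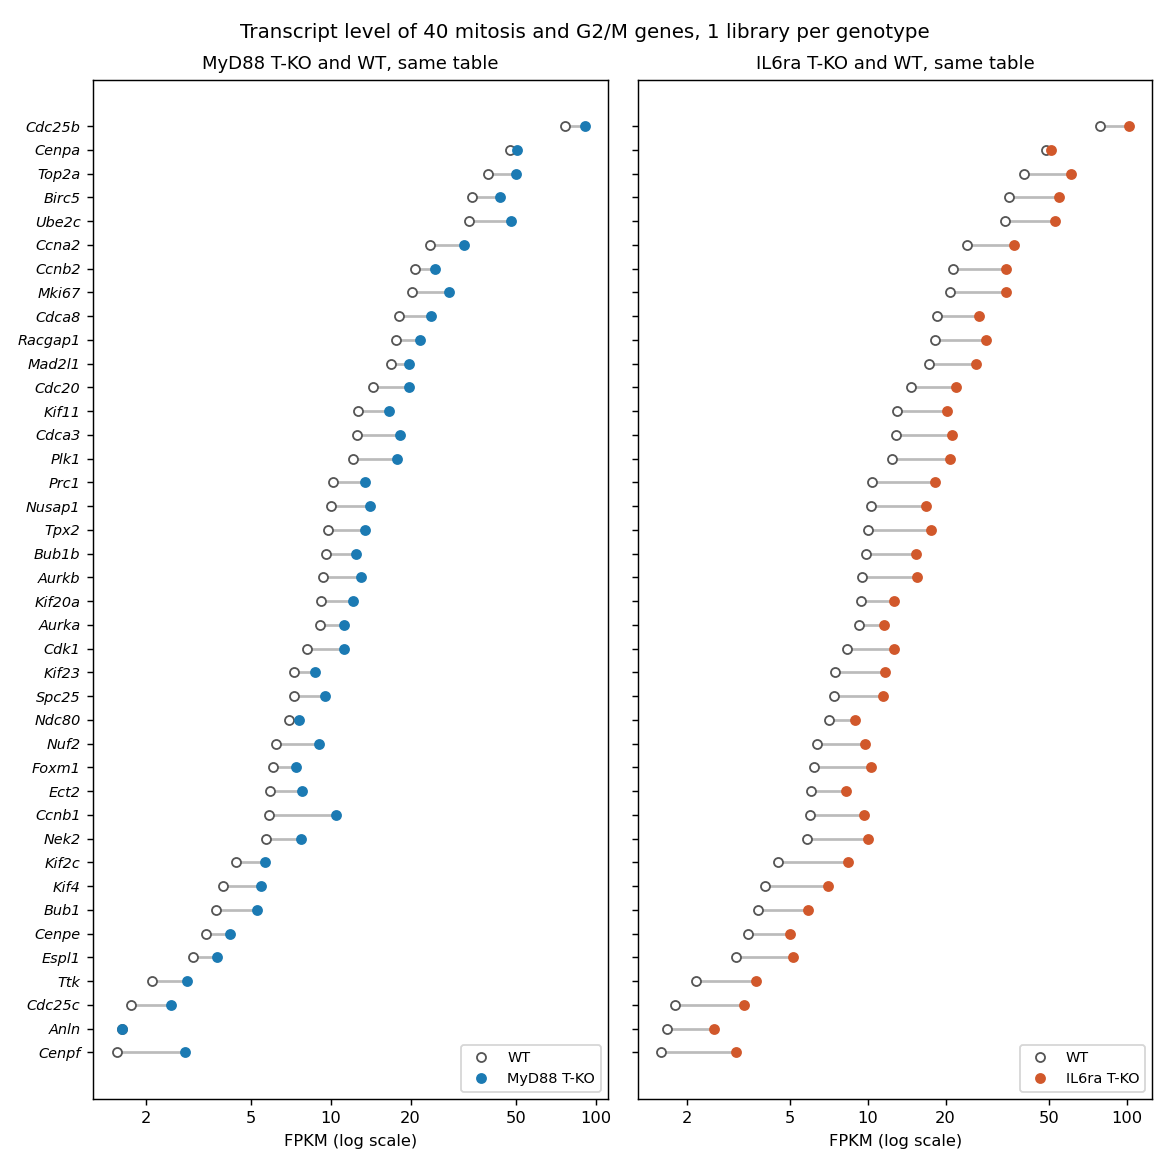
FPKM of each of the 40 mitosis and G2/M genes on a logarithmic axis, WT (open circles) joined to MyD88 T-KO (left, filled) and to IL6ra T-KO (right, filled) from the same table, ordered by level in WT. Each circle is 1 library. The filled circle lies to the right of the open one for 39 genes on the left and for 40 on the right, from Cenpf at the bottom to Cdc25b at the top.

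Levels of the 40 genes in WT spanned 1.56 to 76.7 FPKM, from percentile 6.13 to percentile 92.1 of the measured genes. The difference was seen across this whole range, as the plot of levels in each library shows. The genes lie on 16 chromosomes, with 8 on chromosome 2, the most on any. The number of fragments behind each level was estimated from transcript length and depth. It was lowest for Cdc25c, at 74 in WT and 101 in MyD88 T-KO, and had medians of 580.5 in WT and 741.5 in MyD88 T-KO.

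Set side by side, the IL6ra-labelled library had the larger ratio for 38 of the 40 genes, where 40.2% of the 10286 genes measured in both tables had. The exceptions were Ccnb1 and Cenpa. The median gap was 0.22 in favour of the IL6ra-labelled library, against a median of -0.05 over all genes. No test of this gap was made, since each library stands alone. Ratios of all genes also spread more widely in the second table. The gap was largest for Kif2c, Ccnb2, Anln and Foxm1, at 0.47, 0.42, 0.42 and 0.40. It was smallest in size for Cenpa and Aurka, at -0.01 and 0.02. By subgroup, the median ratios in MyD88 T-KO ran from 0.24 for the kinetochore to 0.46 for anaphase and proteolysis. In the IL6ra-labelled library they ran from 0.41 for cytokinesis to 0.65 for the chromosomal passengers and spindle. The subgroups hold 2 to 8 genes each, and differences between them were not tested.

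**Figure D4:**
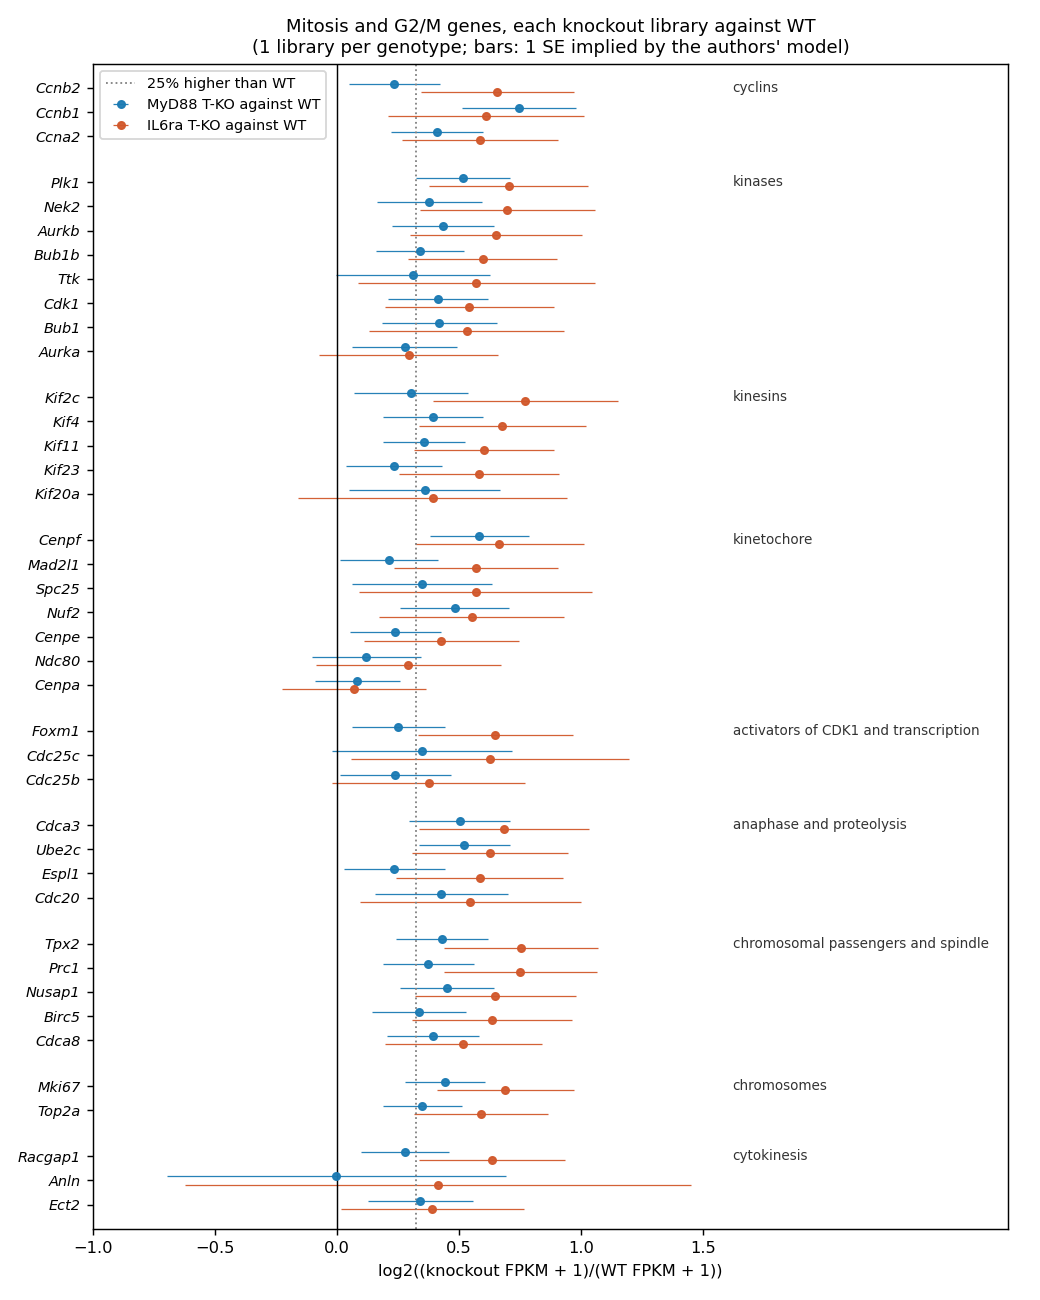
log2((knockout FPKM + 1)/(WT FPKM + 1)) of the 40 mitosis and G2/M genes by subgroup, for MyD88 T-KO (blue) and IL6ra T-KO (orange). Bars are 1 standard error implied by the authors' deposited fold change and test statistic, which belongs to the ratio without the added 1. The solid line is no difference and the dotted line is 25% higher. The orange point lies to the right of the blue one for all genes but Ccnb1 and Cenpa, and the widest bars are those of Anln.

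Other genes of the cell cycle were set beside the 40. A list of 78 other mitotic genes had median ratios of 0.23 in MyD88 T-KO and 0.48 in the IL6ra-labelled library. Beside 3.87% and 11.4% of all genes, 23 and 59 of this list were at least 25% higher on the FPKM + 1 scale. Its highest ratios belonged to Oip5 in the first table, 0.65 (0.76), and to Cenpw in the second, 0.82 (0.59), both of them centromere factors expressed at low level. Its lowest ratio in the first table was that of Cenpp, -0.12 (0.44), and in the second that of Pttg1, or securin, the inhibitor of the separase Espl1, at 24.1 FPKM beside 30.4 FPKM in WT. DNA replication genes, which act before mitosis, had medians of 0.17 and 0.35, with 2 and 22 of 40 at least 25% higher. Of all genes, 3.87% and 11.4% were, and the first count is close to that share. Within the replication list the highest ratio in both tables was that of Tk1, thymidine kinase, 0.61 (0.24) and 0.74 (0.41). The lowest were Gins3 at -0.11 and Mcm6 at -0.13.

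Core APC/C subunits, DREAM and MuvB subunits, NF-Y subunits, and mitotic exit phosphatases and G2 brakes had medians close to that of all genes. The 12 core subunits of the APC/C had medians of 0.02 and 0.05, beside 0.52 and 0.63 for Ube2c. Anapc11 was highest in both at 0.30 (0.22) and 0.47 (0.38), and the lowest were Anapc13 at -0.03 (0.23) and Anapc10 at -0.24 (0.45). The 11 genes of the DREAM and MuvB complexes had medians of 0.02 and -0.02, and within this list Mybl2, which encodes B-MYB, had the highest ratio in the second table, 0.49 (0.37). In the first Rbl1 (p107) was highest at 0.22 (0.18), and E2f5 was lowest in both at -0.12 (0.37) and -0.35 (0.65). The 3 NF-Y subunits Nfya, Nfyb and Nfyc had medians of 0.05 and 0.07. The 8 mitotic exit phosphatases and G2 brakes had medians of 0.07 and 0.02, from Ppp2r2d at -0.12 to Chek1 at 0.20 in the first table and from Ppp2r2a at -0.19 to Wee1 at 0.28 in the second. G1 cyclins and their kinases, which govern the decision to start a cycle, had medians of 0.12 and 0.14. These lie above the upper quartiles over all genes, 0.10 and 0.12. Among the G1 genes Ccnd2, cyclin D2, was highest in the first table, at 122 FPKM beside 87.9 FPKM in WT. Its ratio in the second was -0.08 (0.29). Ccne2, cyclin E2, was highest in the second at 0.62 (0.85), and the lowest were Cdk2 at -0.04 (0.21) and Cdk6 at -0.35 (0.34). CDK inhibitors had medians of -0.09 in both tables, and went both ways, with 2 of 4 and 3 of 6 measured genes above WT. Cdkn1a (p21) was the lowest in each table, at ratios of -0.44 (0.23) and -0.56 (0.40). The highest were Cdkn2c (p18) in the first, at 0.39 (0.20), and Cdkn2a in the second, at 1.10 (1.10). These lists were described by their medians and counts, and no difference between lists was tested.

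**Figure D5:**
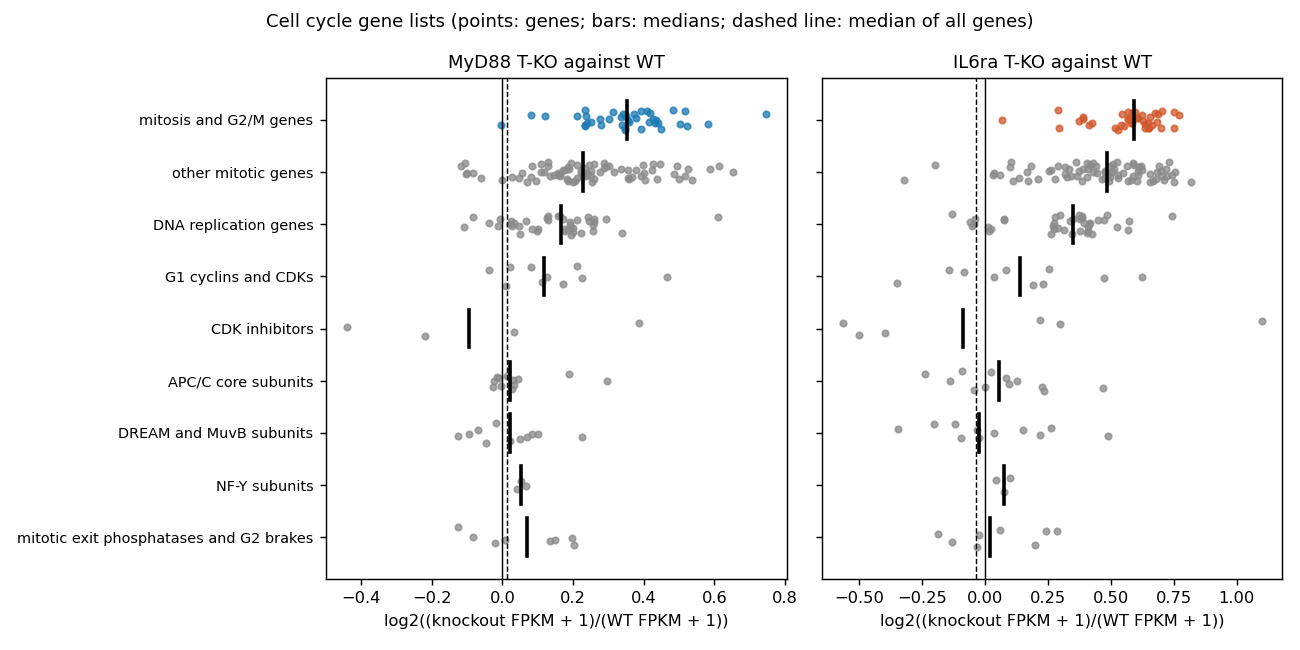
log2((knockout FPKM + 1)/(WT FPKM + 1)) of single genes (points) in the mitosis and G2/M genes and in 8 other cell cycle lists, with the median of each list (bars) and of all genes (dashed line), for MyD88 T-KO (left) and IL6ra T-KO (right). The median is highest for the mitosis and G2/M genes, at 0.35 and 0.59, followed by other mitotic genes at 0.23 and 0.48 and DNA replication genes at 0.17 and 0.35.

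Markers of other cells were read in the same libraries, since any dividing cell brings mitotic transcripts. All 8 CD4 T cell markers found in the tables were measured. They summed to 3014 FPKM in MyD88 T-KO beside 2914 FPKM in WT, with 6 of 8 above WT and a median ratio of 0.03. In the IL6ra-labelled library they summed to 2683 FPKM beside 2986 FPKM, with 7 of 8 below WT and a median ratio of -0.17. Cd3e, a signalling chain of the T cell receptor, stood at 749 beside 711 FPKM and at 653 beside 728 FPKM. Zap70, the kinase that this receptor recruits, had the largest ratio in size there, at 191 beside 240 FPKM. Cd4 itself stood at 462 beside 415 FPKM and at 445 beside 425 FPKM. All 19 B cell markers were above WT in both comparisons, with none at 0. Their summed level was 994 FPKM in MyD88 T-KO and 543 FPKM in WT, and 800 FPKM in the IL6ra-labelled library beside 556 FPKM in the WT column of that table. As folds over WT these B cell sums were 1.83 in MyD88 T-KO and 1.44 in the IL6ra-labelled library. The sums of the 40 mitotic genes were 1.28 and 1.48. How B cells relate to the mitotic transcripts was not tested. Of 5 germinal centre B cell markers, the dividing B cells of an immune response, only S1pr2 reached 1 FPKM, and T cells are known to express it too.

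The plasma cell gene Igj, the joining chain of secreted antibody, stood at 15.7 FPKM in MyD88 T-KO beside 7.96 FPKM in WT, and at 42.2 FPKM in the IL6ra-labelled library beside 8.16 FPKM. Summed over 6 plasma cell markers, the levels were 81.8 beside 70.0 FPKM and 118 beside 71.7 FPKM, and Tnfrsf17 was at 0 in MyD88 T-KO and WT. Xbp1 made up 49.3 of the 71.7 FPKM in WT and had ratios of 0.02 (0.17) and -0.17 (0.28). The median ratios of the 5 measured markers were 0.25 and 0.63. Ratios in MyD88 T-KO were 0.63 (0.30) for Mzb1, 0.25 (0.43) for Sdc1 and -0.37 (0.20) for Prdm1. In the IL6ra-labelled library they were 1.36 (0.46), 0.63 (0.62) and 0.56 (0.32). The summed levels of 11 macrophage and dendritic cell markers were 24.9 beside 17.1 FPKM and 22.3 beside 17.5 FPKM. Only 2 of these reached 1 FPKM in each comparison, and they went opposite ways. Lyz2 stood at 15.0 beside 7.25 FPKM and at 12.9 beside 7.43 FPKM. Cd68 stood at 7.82 beside 8.31 FPKM and at 5.93 beside 8.51 FPKM. Both CD8 T cell markers were above WT, with sums of 22.0 beside 11.4 FPKM and 14.2 beside 11.7 FPKM. Neutrophil markers summed to 38.9 beside 35.4 FPKM and 21.7 beside 36.2 FPKM, gamma delta T cell markers to 4.13 beside 6.89 FPKM and 0.920 beside 7.06 FPKM, and erythroid markers to 35.9 beside 13.7 FPKM and 4.50 beside 14.1 FPKM. NK cell markers, and stroma and endothelium markers, differed by less than 10% in sum in both tables. The NK sum hid opposite differences in the IL6ra-labelled library, where Eomes stood at 5.13 beside 2.60 FPKM and Klrb1c at 3.98 beside 5.77 FPKM. Of the stroma and endothelium markers only Pecam1 reached 1 FPKM. The part of these other cells in the mitotic transcripts was not tested.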

How the data were processed

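RNA from 3 pooled libraries was compared, 1 per genotype, grouped by their titles. Polyadenylated RNA was sequenced, per the labels' protocols. The authors deposited 2 tables, each setting 1 knockout library against WT, with FPKM per gene scaled within the pair. The submitters' processing notes name TopHat, Cufflinks and build mm10, with versions not given in the sources used here, and the columns carry Cuffdiff's names. The sign of the deposited log2 fold change was reversed to read knockout over WT. The deposited test statistic is a score per gene, and the authors' p-value and q-value compare 1 library with 1 library. Their p equals a two-sided normal p of that statistic, so fold change divided by statistic gives the implied standard error, which belongs to the ratio without a pseudocount.

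Ratios used a pseudocount of 1 FPKM. Genes needed at least 1 FPKM in at least 1 library to be counted, which all 40 members passed, and were counted as higher or lower at 25%. Depth was estimated from the smallest steps of FPKM times transcript length, and fragments from the longest coding transcript of the gene, so these fragment numbers are approximate. Promoters came from RefSeq on GRCm38.p6. Of 34 members with a promoter, 25 had a start within 10 bases of the 5′ end in the tables. All members, the targeted genes, the highest and lowest gene of each cell cycle list and some of the leading markers were named. Cd4, Tnfrsf17, Mzb1, Sdc1 and Prdm1 were added after their values were seen. The members and lists were chosen with earlier results of these data known. Computations used Python 3.11.15, pandas 2.3.3 and scipy 1.17.1 and were tested on simulated data. Other pseudocounts, filters, scalings and sizes of call were tried.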

Additional observations from a re-analysis of the deposited data

How the results depend on the processing

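The median ratio of the 40 genes stayed above 0 under every alternative computed, from 0.25 to 0.40 in MyD88 T-KO and from 0.44 to 0.68 in the IL6ra-labelled library. The count of members at least 25% higher ranged from 12 to 28 and from 29 to 39 over the alternatives that kept this size of call. Over the same alternatives the share of all genes ranged from 1.31% to 6.03% and from 4.96% to 15.1%. The count of members moved by over 1.5 times with a pseudocount of 5 FPKM in MyD88 T-KO, to 12 of 40, beside 1.31% of all genes. At a call of 1.5-fold the counts were 1 and 21, beside 1.13% and 4.2% of all genes. At 2-fold they were 0 and 0, beside 0.184% and 1.1%. Over 7 pseudocount and scaling alternatives, 277 of the single-gene ratios in MyD88 T-KO and 279 in the IL6ra-labelled library moved by less than their implied standard error. The others belonged to Cenpf, at 0.82, 0.26 and 0.86 in MyD88 T-KO with pseudocounts of 0.1, 5 and none, and at 0.30 in the IL6ra-labelled library with a pseudocount of 5. No ratio changed sign. By estimated fragments the thinnest members were Cdc25c, Ttk and Anln, with 74, 133 and 164 fragments in WT. No paired analysis was possible because each group holds 1 library.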
